A study of Drosophila melanogaster with 2 samples.

Results

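Binding of the transcription factor Ets98B, carried as a fusion with green fluorescent protein (eGFP), was examined at 10 selector and patterning genes of the leg and wing: Dll, dac, hth, bab1, bab2 and al for the leg, and ap, vg, salm and nub for the wing. A binding peak was assigned to a gene when its summit lay in the gene body or within 5 kb of it, and it was kept when the ranked peak list of each replicate held a summit within 100 bp (a matched peak). By this rule 22 of the 6429 matched peaks of the conservative list lay at these genes, from 23 of 7157 conservative peaks before matching. The assay, ChIP-seq, sequences the DNA recovered with an immunoprecipitated protein, and the labels list 2 biological replicates of 1 group: whole Drosophila melanogaster pupae of the strain Ets98B-GFP, aged 2 days, with an insertion that targets Ets98B and is not described further in the sources used here. The labels' description names an anti-GFP antibody, while their antibody field reads Ets98B, so the antibody is not settled here. Chromatin was sonicated to 200 to 800 bp, and sex was not recorded. Whole animals pool the cells of legs, wings and all other tissues, so a peak could not be placed in an appendage, and no expression was measured. No other condition was part of the design and no control was analysed here, so the genes were described beside all peaks and all 13968 protein-coding genes of the main chromosome arms, without a test.

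Legs and wings of the fly grow from imaginal discs, and in the pupa these discs have turned outward and their cells differentiate. In the leg disc, nested domains of transcription factors divide the proximal to distal axis: hth proximally, dac in the middle and Dll distally, with bab1, bab2 and al acting in the tarsus and its tip. In the wing disc, ap specifies dorsal identity, vg with its partner sd specifies wing fate, nub acts in the wing pouch and hinge, and salm patterns the central blade downstream of Dpp signalling. Ets98B belongs to the ETS family, whose DNA-binding domain recognises sequences built around GGAA or GGAT.

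The sequences under the summits are given as examples for the strongest peak of dac, hth, bab1 and bab2. A second bab1 peak is added, which was chosen after its values were seen because its summit falls on GGAA. Each runs from 50 bp before to 50 bp after the conservative summit on the plus strand of the Release 6 (dm6) reference, 5′ to 3′. Capitals mark GGAA, GGAT or GAGAG read on either strand, so their reverse complements are in capitals too. GAGAG is part of the sequence bound by the GAGA factor.
dac upstream, chr2L:16486424-16486524: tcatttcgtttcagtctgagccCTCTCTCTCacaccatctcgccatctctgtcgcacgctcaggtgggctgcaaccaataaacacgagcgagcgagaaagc
hth first intron, chr3R:10634016-10634116: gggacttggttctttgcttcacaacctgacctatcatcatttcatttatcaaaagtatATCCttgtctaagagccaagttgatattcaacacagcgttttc
bab1 downstream, chr3L:1032717-1032817: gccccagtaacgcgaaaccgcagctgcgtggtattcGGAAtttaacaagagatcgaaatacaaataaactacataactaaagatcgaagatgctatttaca
bab1 first intron, chr3L:1087473-1087573: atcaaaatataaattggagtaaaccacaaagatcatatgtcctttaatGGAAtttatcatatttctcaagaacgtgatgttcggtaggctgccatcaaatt
bab2 upstream, chr3L:1178315-1178415: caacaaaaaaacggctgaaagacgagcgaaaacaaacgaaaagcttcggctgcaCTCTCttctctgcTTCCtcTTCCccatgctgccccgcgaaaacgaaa
The dac window held GAGAG at 3 overlapping positions and no GGAA or GGAT. The hth window held 1 GGAT, 9 bp from the summit, and the bab1 window downstream of the gene held 1 GGAA, 12 bp from the summit. The bab2 window held both GAGAG and 2 copies of GGAA.

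Matched peaks were found at 5 of the 10 genes, all 5 of them listed above under the leg, though hth also acts in the wing hinge. They numbered 10 at hth, 7 at bab1, 2 at Dll, 2 at bab2 and 1 at dac, while al and the wing genes ap, vg, salm and nub had 0. In the longer lists described below, 10 of 18 leg genes and 13 of 24 wing genes had a matched peak. Over all protein-coding genes, 51% had a matched peak by the same rule, and of those with a body at least as long as the shortest of the 10 (9328 bp) 70.1% did. The 10 genes were long, with a median body of 21.1 kb against 2.16 kb over all protein-coding genes. Their loci held 0.467 peaks per 10 kb, beside 0.537 over the loci of all protein-coding genes and 0.536 over those of the long genes, so the peaks were slightly less dense at these genes, a difference that was not tested.

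**Figure D1:**
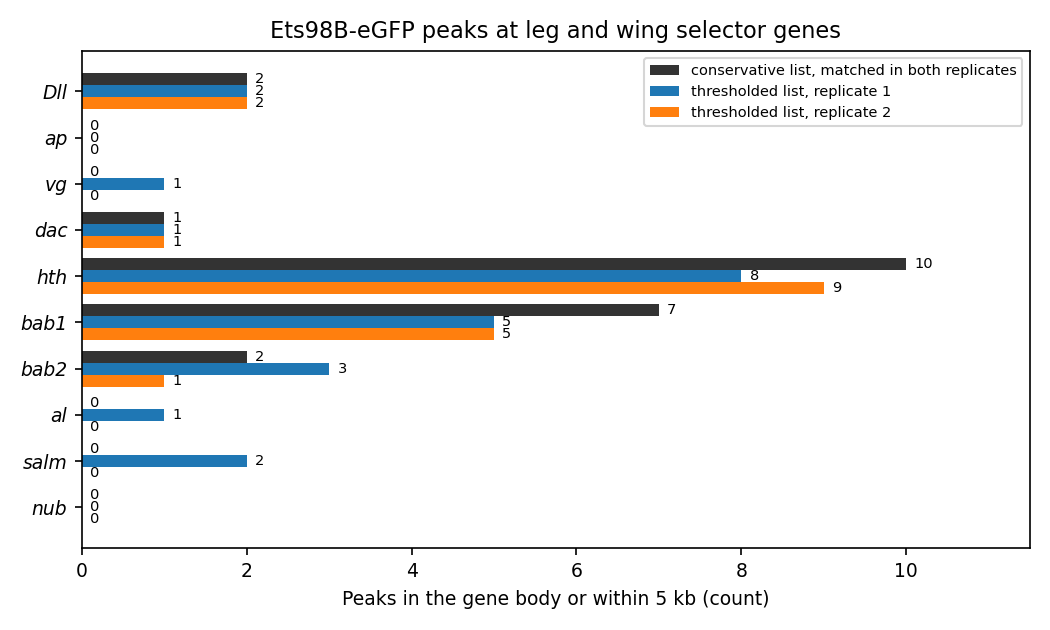
Number of peaks (horizontal axis) in the body or within 5 kb of each of the 10 genes, counted in the matched conservative set and in the thresholded list of each replicate. hth and bab1 hold most peaks in every list, ap and nub hold none in any, and vg, al and salm have peaks in replicate 1 alone.

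Most of these peaks were intronic. Of the 22 summits, 17 lay in an intron of the gene, 4 upstream and 1 downstream. Of the intronic ones, 10 were at hth and 6 at bab1, so these shares mainly describe those genes. At Dll and dac all peaks were upstream. A summit within 500 bp of an annotated transcription start site (TSS) was found for 2 of the 22 (9.09%, 95% Wilson interval 2.53 to 27.8%), beside 39.0% of all matched peaks and 34.0% of those at the loci of the long genes. Wilson intervals cover counting error only and treat peaks as independent, although most of the 22 come from hth and bab1. The 2 genes with a peak at their own TSS were Dll and dac, which is 20% of the 10 and close to the 20.1% of all protein-coding genes.

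**Figure D2:**
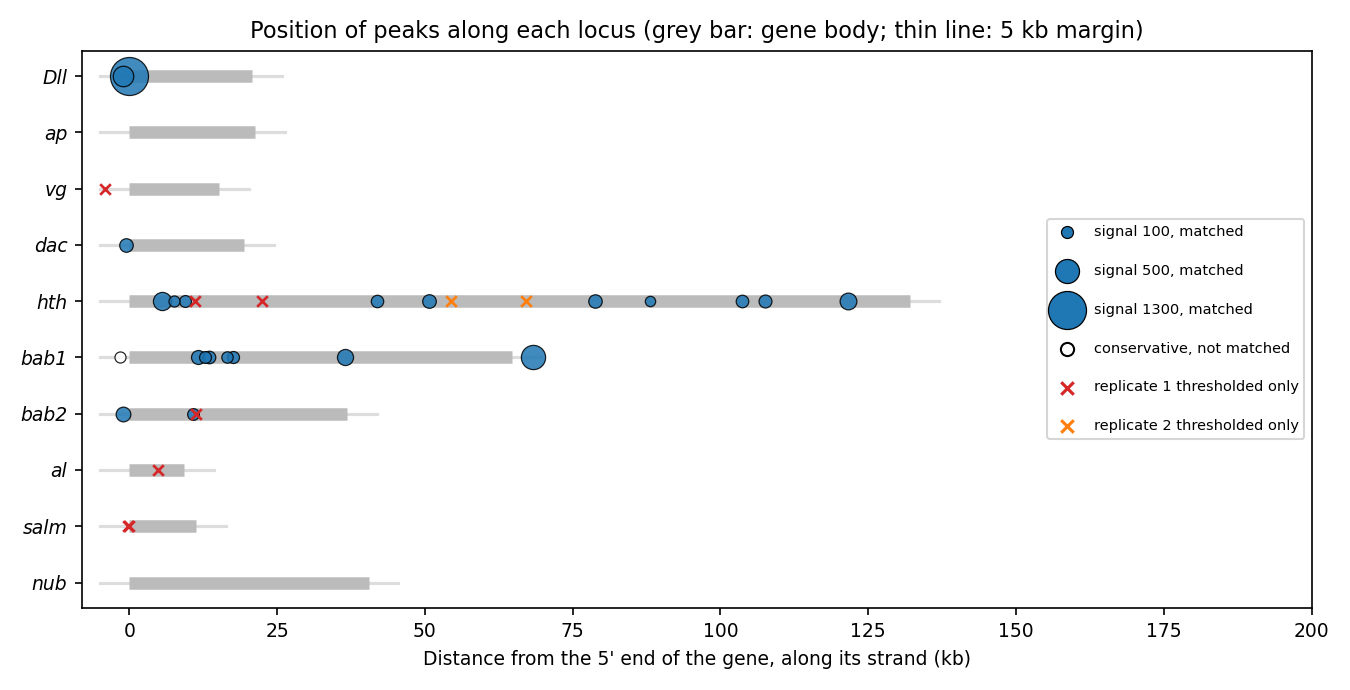
Position of each peak summit along its gene (horizontal axis, kb from the 5′ end along the strand, with 5 kb margins as thin lines). Circle area grows with the conservative signal, and crosses are peaks called in 1 replicate's thresholded list that had no counterpart in the conservative list. The largest circle lies just upstream of Dll, and the peaks of hth run along its whole body.

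Dll, the homeobox selector of the distal leg, carried the strongest peak of the 10 genes. It lay at chr2R:24814493-24814955, with its summit 90 bp upstream of the only annotated TSS of the gene (FBgn0000157, chr2R:24814822-24835667, plus strand). Its signal, a value per peak given by the authors on a scale that the sources used here do not state, was 435 in replicate 1, against 856 in replicate 2 (646 ± 297, mean ± SD, n = 2). In the conservative list its signal was 1299.7, which ranked 49 of 7157. A second peak, at chr2R:24813690-24813929 and 1002 bp upstream of the TSS, had a signal of 91.7 in replicate 1, 261 in replicate 2 (176 ± 120, SD, n = 2), with 355 in the conservative list. Both peaks were higher in replicate 2, by 1.97 and 2.85 times. Ratios as high were found for 9.74% and 1.66% of all matched peaks. Both peaks were in the thresholded list of each replicate. The window at the TSS peak had a GC content of 68.3% and held GGAT and the E-box word CANNTG, while the second had 61.4% GC and held GAGAG without GGAA or GGAT. Within the gene body itself no peak passed, and the strongest one below the threshold had a score of 710 against a lowest conservative score of 830.

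dac, which encodes the nuclear factor Dachshund of the middle leg segments, had 1 peak, at chr2L:16486284-16486663. Its summit lay 476 bp upstream of the TSS of the gene (FBgn0005677, chr2L:16466512-16485998, minus strand), just inside the 500 bp window. The signal was 81.9 in replicate 1 against 55.8 in replicate 2 (mean 68.8 ± 18.4, SD, n = 2), with 138 in the conservative list, close to the median of all matched peaks. Unlike the Dll peaks it was higher in replicate 1, with a ratio of replicate 2 to replicate 1 of 0.682. The sequence around its summit is the GAGAG run printed above, with CANNTG as well.

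hth, which encodes the TALE homeodomain partner of Extradenticle in the proximal leg and the wing hinge, had the most peaks: 10, all in introns of its 132 kb body (FBgn0001235, chr3R:10507561-10639568, minus strand). Their summits spanned 116 kb with gaps of 1.88 to 32.5 kb. The strongest lay in the first intron, 5502 bp from the TSS at the 5′ end (chr3R:10633960-10634175), with a signal of 137 in replicate 1 and 131 in replicate 2 (134 ± 4.19, SD, n = 2). The next lay at the other end of the gene, 121.5 kb from the 5′ end (chr3R:10517944-10518140), with 139 in replicate 1 and 95 in replicate 2 (117 ± 30.8, SD, n = 2). The third, at chr3R:10588857-10588969 in intron 5, had 47.8 in replicate 1 and 86.6 in replicate 2 (67.2 ± 27.4, SD, n = 2), so these replicates differed by 1.81 times in the direction opposite to that of the second. The other 7 had conservative signals of 66.2 to 134.5, and their replicate values lay between 33.2 and 78.2 in replicate 1 and between 38.7 and 60.3 in replicate 2. Over the 10 peaks 5 were higher in replicate 2, and the median ratio was 0.998.

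As many peaks as at hth were found at 57 protein-coding genes (0.408%), and at 2.75% of the long genes. Per 10 kb, hth held 0.704 peaks, and 42.2% of protein-coding genes were as dense or denser. Each locus includes 5 kb on either side, so a short gene can be as dense with 1 peak. Among the 25 genes with a body of 126 to 158 kb, the length class of hth, the median was 1 peak and the 90th percentile 10.6. The 10 peaks of hth were thus many for its length class, a difference that was not tested. Of the other hth windows, the one in intron 8 (chr3R:10535750-10536129, signal 113) held GGAA, GGAT and GAGAG, and had a GC content of 54.5%. The 10 windows differed in these words, and 5 of them held none of the 3.

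**Figure D3:**
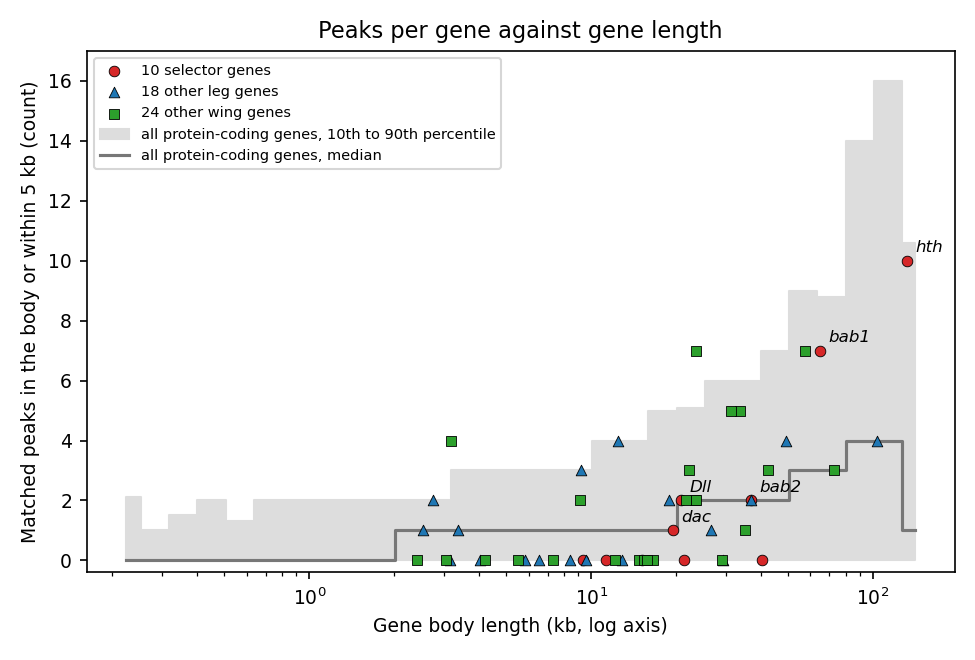
Matched peaks per gene (vertical axis, count) against gene body length (horizontal axis, kb, log scale) for the 10 genes, the other leg and wing genes and, in grey, the 10th to 90th percentile of all protein-coding genes. hth (10 peaks) and bab1 (7 peaks) lie near the upper edge of the grey band for their length, and the other 8 lie at or below 2 peaks.

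bab1, which encodes a BTB-domain factor of the tarsus that also acts in abdominal pigmentation and the ovary, had 7 matched peaks (FBgn0004870, chr3L:1036369-1101089, minus strand). The strongest lay 3602 bp downstream of the gene, at chr3L:1032642-1032927, with a signal of 247 in replicate 1 and 266 in replicate 2 (257 ± 13.1, SD, n = 2). Its conservative rank was 372. It falls in an intron of the neighbouring gene trio, and the nearest TSS, 1930 bp away, belongs to CG9205, so its assignment to bab1 is by distance alone. The remaining 6 lay in the first intron, which is 58746 bp long. The strongest of these, at chr3L:1064484-1064642, had 105 in replicate 1 and 98.7 in replicate 2 (102 ± 4.33, SD, n = 2). Next came chr3L:1089390-1089508, with 62.3 in replicate 1 and 88.2 in replicate 2 (75.3 ± 18.3, SD, n = 2). A cluster of 5 of the 6, this one included, sat between 11.6 and 17.5 kb from the TSS.

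The replicates disagreed on 2 peaks of that cluster. The peak with GGAA at its summit, at chr3L:1087333-1087712, had 72.7 in replicate 1 and 43.1 in replicate 2, the lowest ratio of the 22 (0.592). Its neighbour at chr3L:1088087-1088466 had 29.3 in replicate 1 and 56.9 in replicate 2, a ratio of 1.94. An eighth conservative peak, at chr3L:1102408-1102787 and 1509 bp upstream of the TSS, was not matched: replicate 2 had a signal of 61.4 there, and the nearest summit of replicate 1, with 29.6, was 160 bp away. Counts as high as that of bab1 were found at 157 protein-coding genes (1.12%), and densities as high as its 0.937 peaks per 10 kb at 24.3%.

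bab2, the paralogue next to bab1 with a similar role in the tarsus, had 2 peaks (FBgn0025525, chr3L:1140429-1177276, minus strand). The first, at chr3L:1178311-1178405 and 1089 bp upstream of its TSS, had a signal of 92.8 in replicate 1 and 80.3 in replicate 2 (86.5 ± 8.84, SD, n = 2). The second, in intron 2 at chr3L:1166295-1166674, had 41.7 in replicate 1 and 53.3 in replicate 2 (47.5 ± 8.16, SD, n = 2). Neither pair differed by more than 1.5 times. The upstream window held GGAA and GAGAG, and the intronic one GGAA.

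For the 5 genes without a matched peak, weaker signal was found in the ranked lists, which also hold peaks below the authors' threshold. al, the homeobox gene of the leg tip (FBgn0000061, chr2L:378112-387439, plus strand), had a peak in its first intron with a signal of 59.5 in replicate 1, where it passed the threshold, and 22.7 in replicate 2, where it did not. vg, the wing selector (FBgn0003975, chr2R:12884201-12899385, plus strand), had a peak 4009 bp upstream with 57.2 in replicate 1, while the nearest summit of replicate 2 was 119 bp away and had 18.1. The strongest ranked peak of replicate 2 at vg was another one, with 32.4, and did not pass the threshold. salm, a zinc finger gene of the central wing (FBgn0261648, chr2L:11434311-11445614, minus strand), had 2 peaks in replicate 1, 56 and 263 bp from its TSS with signals of 27.9 and 21.6, and the nearest replicate 2 summits were 4814 and 5021 bp away. The al peak, the vg peak 4009 bp upstream and the 2 salm peaks near the TSS passed the threshold in replicate 1 alone. All were in the second, larger series-level list.

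ap, the LIM homeobox gene of the dorsal wing (FBgn0267978, chr2R:5706202-5727525, minus strand), had no peak even in the ranked series-level list. The strongest ranked peak at ap had a signal of 30.3 in replicate 1, and a different one, at another position, was the strongest in replicate 2 with 19.7. nub, a POU-domain gene of the wing pouch (FBgn0085424, chr2L:12587625-12628135, plus strand), had a strongest signal of 20.5 in replicate 1 and, at another position, of 21.9 in replicate 2. None of these peaks passed a threshold in either replicate. Because no read counts were given, the depth of the replicates is unknown, and a peak that was not called may lie below what that depth could show.

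**Figure D4:**
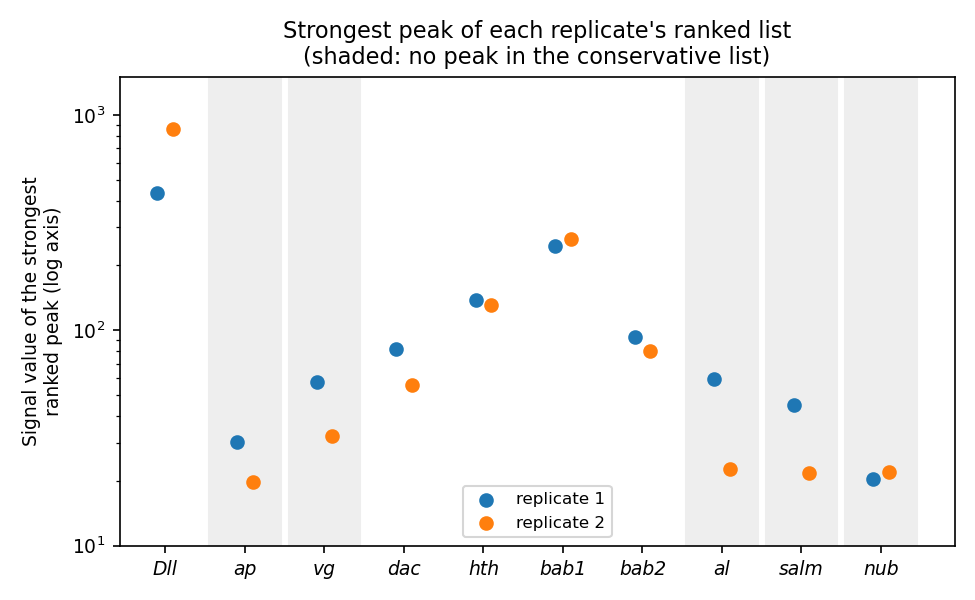
Signal (vertical axis, log scale, the authors' unit) of the strongest ranked peak of each gene in replicate 1 and replicate 2. The strongest peak of a gene can be a different one in each replicate. Dll is highest in both replicates (435 and 856), nub is lowest in replicate 1 (20.5) and ap is lowest in replicate 2 (19.7).

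The lists of the single replicates gave different counts for these genes. With the thresholded peaks of replicate 1, 8 of the 10 genes had a peak, beside 48.4% of protein-coding genes. With those of replicate 2, 5 of the 10 did, beside 55.3%. In the larger series-level list the count was 8 of 10, beside 58.1%. al, vg and salm are the genes that made this difference. At hth, 2 peaks passed in replicate 1 alone (signals 74.5 and 66.5) and 2 in replicate 2 alone (33.5 and 46.8) without being in the conservative list, and at bab2 another passed in replicate 1 alone (47.1).

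The threshold of 5 kb left out a few peaks close to these genes. A matched peak lay 5304 bp from vg (signal 77.2, and 91 bp from the TSS of Nmda1). For bab1, matched peaks lay 5307 and 6566 bp away, with signals of 141 and 171, and for dac one lay 6744 bp away with 262, nearer to the TSS of Tpr2. Of the peaks counted, the farthest from a gene body were the bab1 peak at 3602 bp and the bab2 peak at 1089 bp. On the score scale the weakest matched peak, in hth, had 842 against the lowest conservative score of 830, and the highest score left out, also in hth, was 811. The highest at salm was 785.

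Median signals of the 22 peaks were close to those of all matched peaks in the conservative list and in replicate 1, and lower in replicate 2. The median conservative signal was 128 (66.2 to 1299.7), against 138 over all 6429 (38.9 to 3728), and 9 of the 22 lay above the value of 138. In replicate 1 the median was 67.5, against 64.0 over all, and in replicate 2 it was 57.5, against 75. The ratio of replicate 2 to replicate 1 had a median of 0.998 and ran from 0.592 to 2.85, with 11 of 22 peaks higher in replicate 2, against a median of 1.10 and 60.6% over all matched peaks. Both Dll peaks were among the 11, and without them the median was 0.949 with 9 of 20 higher in replicate 2. These differences from all peaks were not tested.

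Of the 22 peaks, 13 (59.1%) were in the thresholded lists of both replicates, 3 in that of replicate 1 only, 2 in that of replicate 2 only, and 4 (18.2%) in neither. Over all matched peaks the share in both was 66.4% and in neither 7.19%. Those in neither were 3 of hth and 1 of bab1, with conservative signals of 66.2 to 100.8. Replicate signals of the 22 correlated with a Spearman rho of 0.763 and a Pearson r of 0.855 on the log2 scale, beside 0.708 and 0.818 over all. The conservative list was made from both replicates and matching required a summit in each, so part of this agreement comes from the selection. The peaks also share 2 libraries, so these are descriptions.

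**Figure D5:**
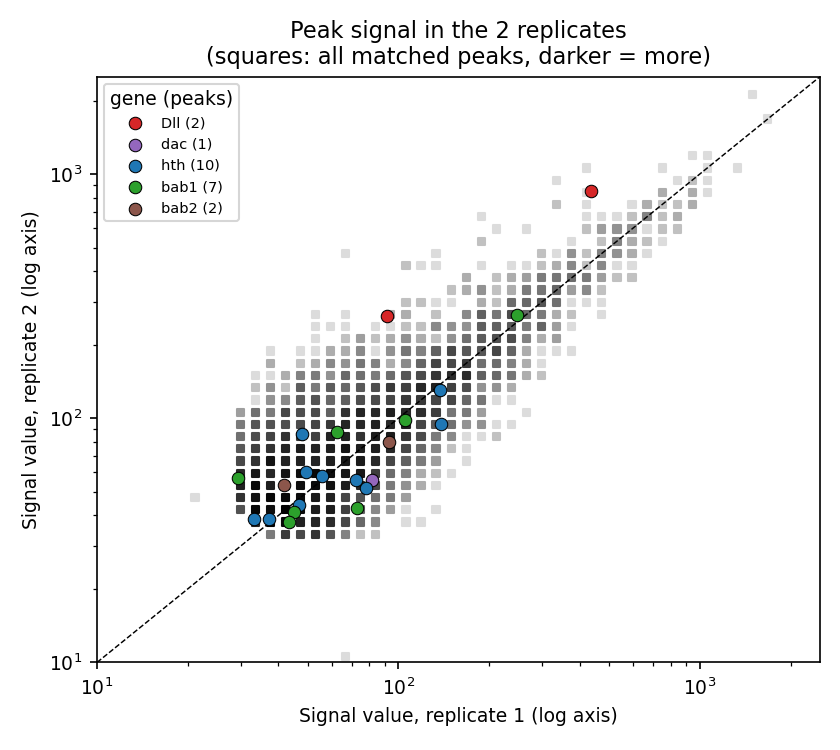
Signal in replicate 2 (vertical axis, log scale) against replicate 1 (horizontal axis, log scale) for the 22 peaks, coloured by gene, over the density of all 6429 matched peaks in grey. Both Dll peaks lie above the line of equal signal, and the peaks of hth and bab1 lie on both sides of it.

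ETS words were found in smaller shares of these windows than of all, within counting error for each word. GGAA was present in 8 of the 22 windows (36.4%, Wilson interval 19.7 to 57.0%), beside 49.2% of all matched peaks, and in 22 of 44 windows centred 500 bp to either side (50%). GGAT was present in 6 (27.3%, interval 13.2 to 48.2%), beside 30.8%, and in 22.7% of the side windows. GGAA, GGAT or both were in 11 of the 22 (50%), beside 64.9% of all. All peaks also held GGAA less often at the summit than to the side, where the share was 55.1%. Short words occur often in windows of this size, so a match is a description of the window and not a binding site.

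GAGAG was present in 5 of the 22 windows (22.7%), beside 15.6% of all matched peaks, and CANNTG in 10 (45.5%), beside 34.9%. The TATA-box sequence TATAAAA was in 2 (9.09%), beside 8.23% of all matched peaks, and AGGTCA, a nuclear receptor half-site, was in 1 (4.55%), the strongest hth peak, beside 1.79%. Upstream and intronic windows differed in base composition. The 4 upstream windows, 2 of Dll and 1 each of dac and bab2, had a median GC content of 57.9% (49.5 to 68.3%), and 3 of them held GAGAG. The 17 intronic windows had 28.7% (22.8 to 54.5%), and 2 of them, both of hth, held GAGAG. Of these windows, 10 were of hth and 6 of bab1, and only bab2 had a window of each kind. The difference between upstream and intronic windows therefore cannot be told apart from one between genes. Over all matched peaks, the median GC content was 39.6% at a TSS and 32.7% away from one, and GAGAG was in 18.6% and 13.7%. Conservative signals had a median of 261 upstream against 113 in introns, and no test was made of so few peaks. The 2 Dll peaks, with 1299.7 and 355, were above every intronic peak. The upstream peaks of dac (138) and bab2 (167) lay within the intronic range of 66.2 to 272.5.

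Further genes of leg and wing patterning were counted by the same rule. Of 18 other leg genes, 10 (55.6%) had a matched peak and 6 (33.3%) one at their own TSS, beside 20.1% of all protein-coding genes. The most, 4, were at Lim1, a LIM homeobox gene of the leg tip, at bowl, a zinc finger gene of the leg joints, and at the Hox gene Antp. The strongest was at the TSS of bowl, with 323 in replicate 1 and 354 in replicate 2, followed by drm, a relative of bowl in the same pathway, with 119 in replicate 1 and 126 in replicate 2. Of 24 other wing genes, 13 (54.2%) had a matched peak and 10 (41.7%) one at their own TSS, again beside 20.1%. Most were found at Bx, a LIM-only regulator of the partners of Apterous, with 7, at fng, a glycosyltransferase that modifies Notch at the dorsal to ventral boundary, also with 7, and at bs, a serum response factor of wing intervein cells, and dpp, the BMP ligand, with 5 each. The strongest were at dpp, with 391 in replicate 1 and 301 in replicate 2, and at tup, a LIM homeobox gene of the notum, with 271 in replicate 1 and 301 in replicate 2. That tup peak lay beyond the 3′ end of the gene, at the TSS of another protein-coding gene, so its assignment to tup is by distance alone. The shares with a matched peak are near the 51% of all protein-coding genes and below the 70.1% of the long ones, though both lists also hold shorter genes. Those with a peak at their own TSS are above the 20.1%, a difference that was not tested. Some listed genes have several annotated TSSs, up to 7 at sd, and no share was adjusted for gene length or number of TSSs. salr and pdm2, the paralogues that neighbour salm and nub, had no matched peak and no thresholded peak in either replicate.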

How the data were processed

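Lists of peaks with dm6 coordinates were deposited, per the labels. The sources used here do not name the aligner or caller. From the authors' file lists, there is a ranked and a thresholded list per replicate, and series-level lists combine both. In the deposited files, signal is a value per peak on an unstated scale, score (at most 1000) is a scaled irreproducible discovery rate, and the −log10 q-value entered no result. No reads are counted, so depth is unknown.

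Genes came from Ensembl release 115, with dm6 coordinates, and sequence from the Release 6 assembly. All 10 genes and both lists matched by symbol. A replicate's value at a peak is that of the nearest summit within 100 bp in its ranked list. Words were searched on both strands in windows of 50 bp to each side of a summit. The 10 genes, the lists and the words were chosen with earlier results of these data known. Named peaks were all peaks of genes with up to 5, and the 3 strongest of hth and bab1; the hth peak in intron 8, the bab1 peaks on which replicates disagreed and those missed by the conservative list were chosen after their values were seen. Counting was tested on simulated data. Python 3.11.15, numpy 2.4.6, pandas 2.3.3 and scipy 1.17.1 were used. Alternatives tried were other windows, matching distances, lists and leaving out a replicate.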

Additional observations from a re-analysis of the deposited data

How the results depend on the processing

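Of 90 alternative values for 8 results, 76 stayed near the reported ones: within 1.5 times for counts and densities, within the Wilson interval for shares, and within the spread between replicate medians (11.2%) for the median signal. The number of genes with a TSS peak was counted without the locus window, so it could not change with that window. Wilson intervals of 22 peaks are wide: a TSS share of 18.2%, against 9.09%, still counted as near. The 76 is thus no measure of stability. The 22 peaks became 13 when a thresholded peak was required in each replicate and 11 among conservative peaks of at least the median signal, and the density became 0.276 and 0.233 per 10 kb. Counting the body alone left 3 genes, 0 peaks at a TSS and a median signal of 113, since Dll and dac have only upstream peaks. With a TSS window of 200 bp, 1 gene had a TSS peak. The median signal was 167 with thresholded lists, 113 with the larger series-level list and 206 in that stronger set, where the GGAA share was 18.2%. That share was 18.2% with windows of 25 bp to each side and 63.6% with 100 bp to each side, which hold fewer or more bases. Without replicate 1 or 2 in the matching step there were 23 or 22 peaks, though the conservative list itself was made from both. No paired analysis was possible because the labels hold 1 group. Depth is unknown, whole pupae pool tissues, and no control was analysed, so signal not specific to the tag was not assessed.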
